A study of Homo sapiens with 6 samples.

Results

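Matrix glycoproteins and laminins are secreted proteins that cells assemble into the scaffold around them. The 9 genes described here (FN1, TNC, SPARC, TGFBI, FBN1, LAMA5, LAMB1, LAMB3 and LAMC1) were taken by their symbols from a table of 28058 genes. RNA came from MDA-MB-231, an established human cell line from a triple-negative breast adenocarcinoma, grown as cultured cells. The 6 libraries form groups of 3: shHSF1, in which the cells expressed a short hairpin RNA (shRNA) directed against HSF1, which encodes a transcription factor of the heat shock response, and shCTL, in which they expressed a control shRNA. The cells grew in DMEM with serum at 21% oxygen, and the labels give no other treatment. The table's column names carry the letters TGL in all 6 libraries and cl before the replicate number, which the labels do not explain. Nor do they say whether replicates were separate cultures or clones, or how many hairpins were used, so the p-values speak for library-to-library spread, which may be technical.

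Fibronectin, the product of FN1, forms fibrils that cells bind through integrins, and tenascin C (TNC) binds fibronectin and loosens adhesion to it. SPARC is a collagen-binding glycoprotein, TGFBI a collagen- and integrin-binding protein named for its induction by TGF-beta, and fibrillin 1 (FBN1) the main protein of microfibrils. A laminin is a heterotrimer of an alpha, a beta and a gamma chain and is the core of the basement membrane. LAMA5, LAMB1 and LAMC1 encode chains of a laminin found in many basement membranes, and LAMB3 pairs with LAMA3 in the laminin that anchors epithelia.

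Levels are RPKM (reads per kilobase of gene and per 1000000 assigned reads), and the reads assigned to genes ranged from 33988307 to 70449758 per library. HSF1 was at 5.01, 4.70 and 3.84 RPKM in shHSF1, against 61.2, 53.3 and 47.9 RPKM in shCTL, 11.98-fold lower (log2 fold change -3.44, SE 0.123, adjusted p = 3.78e-06 by limma). Of the epithelial markers, KRT8 and KRT18 were high, EPCAM was between 4.48 and 10.05 RPKM and CDH1 was at no more than 0.0422 RPKM, while the mesenchymal-type marker VIM was at 1891 RPKM or more. Of 10 fibroblast markers, LUM and THY1 were at 0 in every library and COL1A1 was the only one tested; the summed level was 2.94 to 3.81 RPKM in shHSF1 and 1.72 to 2.58 RPKM in shCTL. The 5 endothelial markers summed to 2.63 to 2.90 RPKM in shHSF1 and 10.5 to 11.5 RPKM in shCTL, nearly all of it KDR, and the 5 leukocyte markers, nearly all CD68, to 82.5 to 104.5 RPKM in shHSF1 and 68.8 to 84.2 RPKM in shCTL. The part of such lists in the results below was not tested, and in bulk RNA a change in the share of cells that express a gene and a change per cell cannot be told apart.

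All 9 matrix genes were expressed, with 158 to 33548 reads per gene and library, and all passed the filter of 0.5 RPKM in at least 3 libraries. TGFBI rose 8.40-fold in shHSF1, and FBN1, LAMB1, LAMB3 and LAMC1 rose between 1.18-fold and 1.43-fold. FN1, TNC, SPARC and LAMA5 did not pass the test, and none of the 9 was called lower. The 5 genes called higher compare with 17.7% of all 12433 tested genes called higher, 16.1% called lower and 33.8% called in either direction, at a limma adjusted p under 0.05. With the replicate number as a block 6 were higher, beside 26.2% of all tested genes. In 6 of the 9 genes every shHSF1 value lay above every shCTL value, which was so for 25.6% of all tested genes, and 47.4% had groups that did not overlap in either direction. The median log2 fold change of the 9 genes was 0.35, beside 0.04 over all tested genes. The 9 genes were chosen with earlier results of these data known, so these comparisons only describe them. With a library left out, the number of the 9 called higher was 1 to 6. Folds are ratios of mean RPKM; a log2 fold change was taken after adding 0.5 RPKM, which shrinks it for genes of low level.

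**Figure D1:**
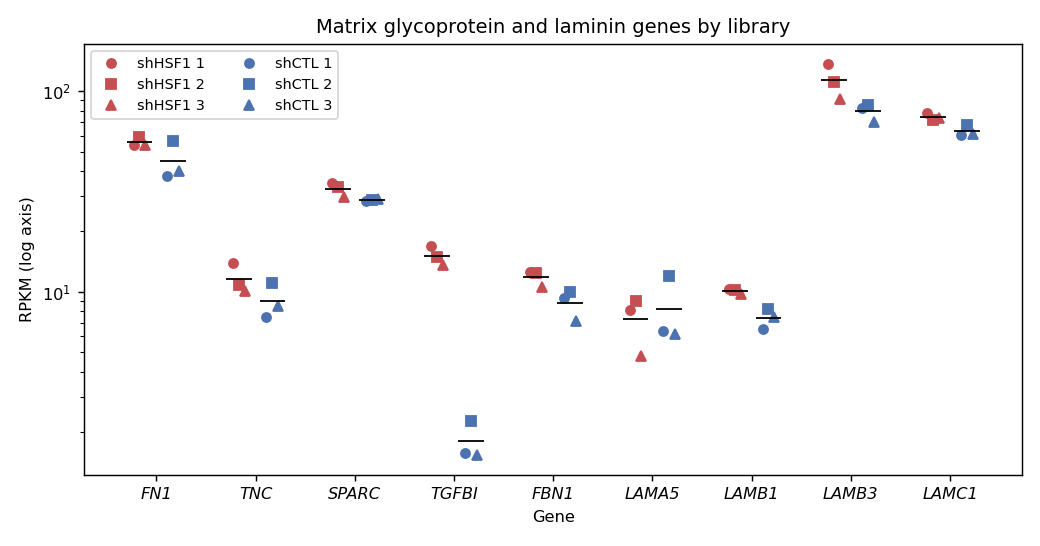
RPKM of the 9 genes on a log axis, with 1 point per library (circle, square and triangle for replicates 1, 2 and 3) and a line at each group mean, shHSF1 in red and shCTL in blue. TGFBI is the gene whose groups lie farthest apart, at 13.5 to 16.8 RPKM in shHSF1 and 1.53 to 2.28 RPKM in shCTL.

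TGFBI (chromosome 5, 136028895 to 136063818, plus strand, hg38) held 16.8, 14.9 and 13.5 RPKM in the shHSF1 libraries, against 1.57, 2.28 and 1.53 RPKM in the shCTL libraries. These values rest on 4920 reads in shHSF1 and 719 in shCTL, and the groups were far apart. On the log2 scale the difference was 2.77 (SE 0.147, adjusted p = 2.25e-05 by limma), which ranked 16 among the 2195 genes called higher. TGFBI was the lowest of the 9 genes in shCTL and the fifth in shHSF1, where it passed LAMB1, LAMA5, FBN1 and TNC. Its share of the summed RPKM of the 9 genes was 4.53% ± 0.0654 in shHSF1 and 0.709% ± 0.0876 in shCTL (SD, n = 3). The call held under all 16 alternatives, with log2 fold changes from 2.53 to 3.11.

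FBN1 (chromosome 15, 48408306 to 48645788, minus strand) held 12.5, 12.4 and 10.6 RPKM in shHSF1, against 9.30, 9.95 and 7.16 RPKM in shCTL. The groups did not overlap, and the gap between the lowest shHSF1 and the highest shCTL library was small. The rise was 0.42 on the log2 scale (SE 0.133, adjusted p = 0.0443 by limma), close to the threshold. It was lost without shCTL 1 (limma adjusted p = 0.0590), shCTL 3 (0.1301), shHSF1 1 (0.124) or shHSF1 2 (0.133), and with no filter on low values (0.0907) or no mean-variance trend (0.0516).

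FN1 (chromosome 2, 215360440 to 215436070, minus strand) held 54.2, 58.9 and 53.9 RPKM in shHSF1, against 37.7, 56.4 and 40.1 RPKM in shCTL. The shHSF1 libraries lay close together, and shCTL 2 lay among them while the other shCTL libraries were lower. FN1 did not pass the test, with a log2 difference of 0.34 (SE 0.144, adjusted p = 0.113 by limma). In each of the 3 same-numbered pairs shHSF1 was higher, and FN1 passed in the fit blocked on replicate number (adjusted p = 0.0221 by limma) and without shCTL 2 (log2 fold change 0.51, limma adjusted p = 0.00585).

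TNC (chromosome 9, 115019576 to 115118257, minus strand) showed the same order of control libraries. It held 13.9, 10.9 and 10.1 RPKM in shHSF1, against 7.46, 11.05 and 8.53 RPKM in shCTL, and shCTL 2 lay above 2 of the shHSF1 libraries. Its log2 difference of 0.35 (SE 0.164, adjusted p = 0.139 by limma) did not pass the test. Without shCTL 2 it was 0.50 (limma adjusted p = 0.0494), just past the threshold.

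SPARC (chromosome 5, 151661096 to 151687054, minus strand) was the steadiest of the 9 genes in the controls. It held 35.0, 33.5 and 29.7 RPKM in shHSF1, against 28.4, 28.7 and 29.2 RPKM in shCTL, so that the groups did not overlap but shHSF1 3 lay just above shCTL 3. With a log2 difference of 0.18 (SE 0.0794, adjusted p = 0.120 by limma), SPARC did not pass the test, except without shHSF1 3 (0.25, limma adjusted p = 0.0281) and relative to its chromosome neighbours, as given below.

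Among the laminin chains, LAMB3 was the highest of the 9 genes in both groups and had the largest rise after TGFBI. LAMB3 (chromosome 1, 209614873 to 209652475, minus strand) held 137, 112 and 91.9 RPKM in shHSF1, against 82.6, 85.1 and 70.4 RPKM in shCTL. The shHSF1 libraries were spread over a wide range, with all 3 above the controls. LAMB3 rose by 0.50 on the log2 scale (SE 0.147, adjusted p = 0.0328 by limma), and the call was lost without shCTL 1 (limma adjusted p = 0.0543), shCTL 2 (0.0548), shCTL 3 (0.110), shHSF1 1 (0.0781) or shHSF1 2 (0.0829), and with no filter on low values (0.0823).

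LAMB1 (chromosome 7, 107923801 to 108003359, minus strand) held 10.4, 10.3 and 9.80 RPKM in shHSF1, against 6.54, 8.23 and 7.53 RPKM in shCTL. Its shHSF1 libraries were nearly equal and all stood above the controls. LAMB1 rose by 0.43 on the log2 scale (SE 0.0999, adjusted p = 0.0132 by limma), and among the 16 alternatives the call was lost only without shHSF1 2 (limma adjusted p = 0.0517).

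LAMC1 (chromosome 1, 183023460 to 183145592, plus strand), the gamma chain shared by most laminins, held 78.2, 72.02 and 73.8 RPKM in shHSF1, against 60.4, 68.0 and 61.2 RPKM in shCTL. The groups did not overlap, and the change was the smallest of the called ones (log2 fold change 0.24, SE 0.0750, limma adjusted p = 0.0408). The call was lost without shCTL 1 (limma adjusted p = 0.109), shCTL 3 (0.148), shHSF1 1 (0.125), shHSF1 2 (0.0838) or shHSF1 3 (0.0545), and with median scaling of the libraries (0.0761), quantile normalization (0.0567), no filter on low values (0.0534) or no mean-variance trend (0.0689).

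LAMA5 (chromosome 20, 62309060 to 62367312, minus strand) differed from the other 8 genes in having a lower mean in shHSF1. It held 8.09, 9.05 and 4.80 RPKM in shHSF1, against 6.38, 12 and 6.19 RPKM in shCTL. The groups overlapped, with the lowest value in shHSF1 3 and the highest in shCTL 2. The log2 fold change of -0.13 (SE 0.292, adjusted p = 0.762 by limma) changed sign without shCTL 2 (0.16) and without shHSF1 3 (0.12), so no direction can be given. Exons of LAMA5 share at most 193 bases with the antisense gene LAMA5-AS1 or with MIR4758, those of SPARC 190 with CLMAT3 on the other strand and those of LAMB3 6 with MIR4260. The sources used here do not say whether counting used strand, so reads shared with LAMA5-AS1 or CLMAT3 cannot be told apart. MIR4758 and MIR4260 lie on the same strand as LAMA5 and LAMB3, where strand could not separate the reads.

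**Figure D2:**
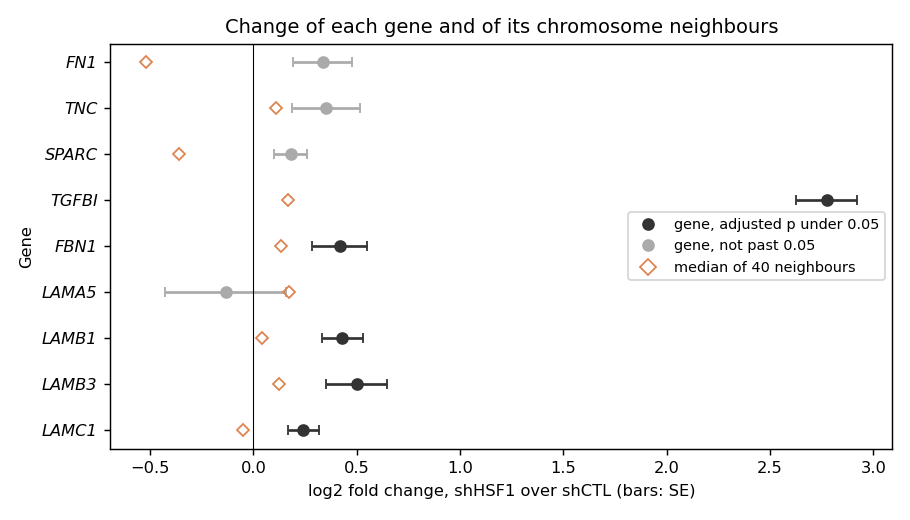
Log2 fold change of each gene (points with SE bars, dark where the limma adjusted p was under 0.05) and the median log2 fold change of its 40 tested chromosome neighbours (open diamonds). TGFBI stands at 2.77, and the neighbours of FN1 and SPARC have medians of -0.52 and -0.36 while both genes lie above 0.

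Per length, the order of the top 4 genes was the same in both groups: LAMB3, then LAMC1, FN1 and SPARC, each with a range over libraries that did not overlap that of the next. In shHSF1 the lower genes were TGFBI, FBN1, TNC, LAMB1 and LAMA5 in that order, and the ranges of FBN1 and TNC and of TNC and LAMB1 overlapped. In shCTL the order was TNC, FBN1, LAMA5, LAMB1 and TGFBI, with TNC, FBN1, LAMA5 and LAMB1 overlapping from each to the next. The summed RPKM of the 9 genes was 367, 333 and 298 in shHSF1, against 240, 282 and 232 in shCTL. Within shHSF1, replicate 3 was the lowest library for 8 of the 9 genes (46.5% of all tested genes), and within shCTL replicate 2 was the highest for 8 of 9 (41.9% of all tested genes).

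Sequence upstream of the start site is shown for the gene with the largest change (TGFBI), the most abundant gene (LAMB3) and the pair with a TATA-type motif (FN1 and TNC). Each is the 250 bases before the RefSeq start on GRCh38.p14, in the direction of the gene, at chr5:136028738-136028987 (plus strand) for TGFBI, chr1:209652426-209652675 (minus strand) for LAMB3, chr2:215436069-215436318 (minus strand) for FN1 and chr9:115118158-115118407 (minus strand) for TNC. Capitals mark GC boxes (GGGCGG or its reverse complement), the cyclic AMP response element TGACGTCA, and the letters TATAA on the strand of the gene 20 to 40 bases before the start.
TGFBI: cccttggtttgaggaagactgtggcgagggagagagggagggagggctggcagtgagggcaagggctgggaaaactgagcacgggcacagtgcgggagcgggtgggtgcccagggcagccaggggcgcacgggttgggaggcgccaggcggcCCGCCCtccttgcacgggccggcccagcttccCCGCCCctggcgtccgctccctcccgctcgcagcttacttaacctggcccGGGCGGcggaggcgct
LAMB3: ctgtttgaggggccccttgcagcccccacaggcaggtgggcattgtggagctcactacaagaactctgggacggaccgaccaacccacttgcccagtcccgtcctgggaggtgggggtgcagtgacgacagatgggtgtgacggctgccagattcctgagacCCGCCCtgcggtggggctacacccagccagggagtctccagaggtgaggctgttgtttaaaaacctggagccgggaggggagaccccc
FN1: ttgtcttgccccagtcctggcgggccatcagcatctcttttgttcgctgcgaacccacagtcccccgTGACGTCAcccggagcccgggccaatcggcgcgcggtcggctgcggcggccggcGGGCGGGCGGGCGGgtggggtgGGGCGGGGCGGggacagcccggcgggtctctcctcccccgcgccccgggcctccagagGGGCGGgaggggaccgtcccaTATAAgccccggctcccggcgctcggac
TNC: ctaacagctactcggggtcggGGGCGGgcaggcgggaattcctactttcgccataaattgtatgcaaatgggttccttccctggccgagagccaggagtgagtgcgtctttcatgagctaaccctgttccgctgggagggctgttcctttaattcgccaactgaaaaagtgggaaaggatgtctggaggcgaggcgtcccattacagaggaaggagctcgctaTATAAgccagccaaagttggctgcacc

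All 9 genes had such a window, and the RefSeq start lay 0 to 818 bases from the start in the table. A GC box was present in 7 of the 9 windows, against 42.6% of 35116 RefSeq windows of the same length, in which a gene can have several. The TATAA letters occurred in FN1, at 28 bases before the start, and TNC, at 27, against 3.91% of all windows, and TGACGTCA in FN1 alone, against 1.65%. No window of the 9 held the letters of a heat shock element on either strand, as 3 alternating GAA and TTC units with 2 free bases between units (in 0.441% of all windows) or as 2 such units (GAANNTTC or TTCNNGAA, which also occur within the longer form, in 11.6%), nor of an AP-1 site (TGANTCA, in 6.57%). These are letters in a window, and no binding was measured.

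Of 11 laminin genes 8 were tested, and 3 were higher (LAMB1, LAMB3 and LAMC1), 3 were lower (LAMA1, LAMA3 and LAMA4) and 2 did not pass the test (LAMA5 and LAMB2), with a median log2 fold change of -0.04. Over all tested genes 17.7% were called higher and 16.1% lower. LAMA3, the alpha partner of LAMB3, fell to 2.50, 2.94 and 2.63 RPKM in shHSF1, against 4.10, 7.14 and 5.08 RPKM in shCTL (log2 fold change -0.87, limma adjusted p = 0.00836). LAMA4, an alpha chain of vessels and muscle, fell 8.61-fold to 0.246 ± 0.0657 RPKM in shHSF1, against 2.12 ± 0.0792 RPKM in shCTL, and LAMA1, the alpha chain of early embryonic basement membrane, fell 2.22-fold (SD, n = 3; adjusted p = 4.30e-05 and 0.000857 by limma). LAMA4 was under 0.5 RPKM in every shHSF1 library and entered the test only through shCTL, so it could be called only as lower. The count of 3 lower genes includes LAMA4, and its steady call under the alternatives says nothing about direction. The falls of LAMA1 and LAMA3 were called under all 16 alternatives. The number of laminin genes called higher was 1 without shCTL 1, 1 without shCTL 3, 1 without shHSF1 1, 0 without shHSF1 2 and 1 with no filter on low values.

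Alpha chains together held 12.3, 13.4 and 8.78 RPKM in shHSF1, against 15.0, 23.8 and 15.8 RPKM in shCTL, and beta chains 186, 162 and 132 RPKM in shHSF1, against 120, 136 and 109 RPKM in shCTL. The alpha sums did not overlap between groups, and the beta sums did. LAMA5 made up 62.7% ± 6.97 of the alpha-chain RPKM in shHSF1 and 44.0% ± 5.83 in shCTL (SD, n = 3), although its own level was not called. LAMB3 made up 70.7% ± 2.66 of the beta-chain RPKM in shHSF1 and 65.3% ± 3.14 in shCTL. In both shares the groups did not overlap. For LAMB3 they nearly met, with the lowest shHSF1 library at 68.94% and the highest shCTL library at 68.76%. For LAMA5 these were 54.72% and 50.43%. A two-sided exact permutation test gave p = 0.1 for each share, the lowest possible with 3 libraries against 3 (also 0.1 after Benjamini-Hochberg adjustment over the 2 shares).

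**Figure D3:**
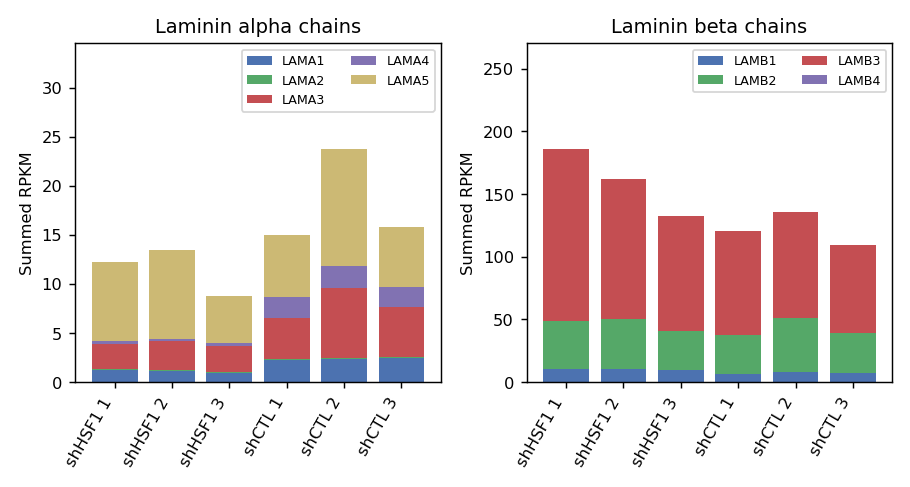
Stacked RPKM of the laminin alpha and beta genes in each library, shHSF1 left of shCTL, on axes that start at 0 and differ between panels. The alpha total is 8.78 to 13.4 RPKM in shHSF1 and 15.0 to 23.8 RPKM in shCTL, and LAMB3 is the main beta gene in all 6 libraries.

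Partners of laminin in the basement membrane moved in both directions. Of 15 listed genes 7 were tested, with 3 higher, 3 lower and 1 not past the test (median log2 fold change -0.22). Over all tested genes the shares were 17.7% higher and 16.1% lower. TINAGL1, a matricellular glycoprotein, rose to 30.1, 25.6 and 20.8 RPKM in shHSF1, against 6.73, 6.18 and 6.25 RPKM in shCTL (log2 fold change 1.90, limma adjusted p = 6.49e-05). PXDN, a peroxidase that crosslinks collagen IV, rose 1.40-fold and FREM2 1.52-fold, from a low level. FRAS1, a partner of FREM2 in the matrix under epithelia, fell 2.99-fold (log2 fold change -1.40, limma adjusted p = 0.000267), HSPG2, which encodes perlecan, 1.86-fold and NTN4, a laminin-related netrin, 1.54-fold. Single libraries ended the calls of FREM2, HSPG2 and NTN4: limma adjusted p rose to at most 0.151 for FREM2 without any 1 of the 6 libraries, to 0.0522, 0.0614 and 0.0577 for HSPG2 without shCTL 1, shCTL 2 and shHSF1 3, and to between 0.0808 and 0.133 for NTN4 without shCTL 2, shCTL 3, shHSF1 1 or shHSF1 2. The count of lower partners was 1 without shCTL 2.

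Other matrix glycoproteins were split as evenly. Of 51 listed genes 22 were tested, with 8 higher, 8 lower and 6 not past the test, and a median log2 fold change of 0.07. The shares over all tested genes were 17.7% higher and 16.1% lower. THBS2, a thrombospondin, rose to 33.7, 32.7 and 33.5 RPKM in shHSF1, against 11.2, 9.75 and 8.74 RPKM in shCTL (log2 fold change 1.71, limma adjusted p = 2.82e-05). MFAP2, a microfibril protein that binds fibrillin, rose 2.41-fold and the fibulin FBLN1 2.83-fold. FBLN1 was at 0.438, 0.537 and 0.336 RPKM in shCTL and met the filter only through shHSF1, the group where it was high. EFEMP1, another fibulin, fell to 8.79, 7.90 and 9.76 RPKM in shHSF1, against 30.4, 35.8 and 34.3 RPKM in shCTL (log2 fold change -1.87, limma adjusted p = 2.47e-05). FBLN5, which assembles elastic fibres, fell 3.94-fold and NOV, a CCN-family matricellular protein, 2.67-fold. These 6 calls held under all 16 alternatives. LTBP2, at 0.388, 0.601 and 0.477 RPKM in shCTL, also met the filter only through shHSF1. EFEMP2 met it only through shCTL, at 1.28, 2.02 and 1.26 RPKM there and 0.624, 0.537 and 0.370 RPKM in shHSF1. The counts of 8 higher and 8 lower include FBLN1, LTBP2 and EFEMP2, whose direction the filter favoured.

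**Figure D4:**
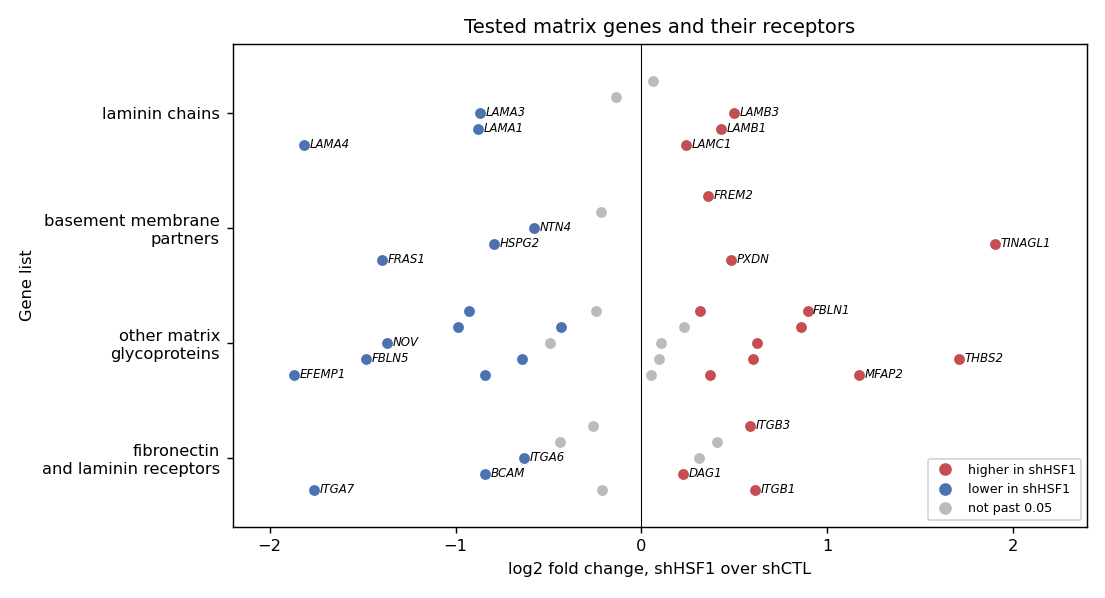
Log2 fold change of every tested gene of 4 lists, red where called higher in shHSF1, blue where called lower and grey otherwise, with the genes named by the fixed rule labelled. Each list has called genes on both sides of 0, and the vertical offset within a list only separates the points.

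Receptors for fibronectin and laminins had 3 higher, 3 lower and 5 not past the test among 11 tested of 14. Of all tested genes 17.7% were called higher and 16.1% lower. ITGB1, the beta subunit common to most of these integrins, rose to 508, 468 and 589 RPKM in shHSF1, against 315, 347 and 358 RPKM in shCTL (log2 fold change 0.61, limma adjusted p = 0.00359). ITGB3 rose 1.56-fold and DAG1, the laminin receptor dystroglycan, 1.17-fold. ITGA7 fell to 0.0558 ± 0.0169 RPKM in shHSF1, against 1.44 ± 0.550 RPKM in shCTL (SD, n = 3), BCAM, a receptor for the chain encoded by LAMA5, fell 1.86-fold, and ITGA6, a laminin receptor subunit, 1.55-fold. ITGA7 was under 0.5 RPKM in every shHSF1 library and entered the test only through shCTL; with the filter at 1 RPKM it was not tested and 2 receptors were lower. With the replicate number as a block 5 receptors were higher and 5 lower, beside 26.2% and 22.1% of all tested genes. The number called higher was 1 without shCTL 3, 1 without shHSF1 2 and 5 without shHSF1 3, and the number called lower 5 without shCTL 1. The calls of ITGB3 without shCTL 3 or shHSF1 2 (limma adjusted p = 0.0646 and 0.0664) and of DAG1 without shCTL 1, shCTL 3, shHSF1 1 or shHSF1 2 (0.0708 to 0.120) were lost.

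Most tested genes next to FN1 and SPARC on the chromosome had negative log2 fold changes, while both genes had positive ones. Neighbours were the 20 tested genes on each side by order along the chromosome. Of the 40 neighbours of FN1, 37 had a log2 fold change below 0 and 28 were called lower, with a median of -0.52. Only 2 had a larger log2 fold change than FN1. Relative to that median, FN1 was 0.86 higher in shHSF1 (limma adjusted p = 0.00425). Here and below, each median was subtracted as a fixed value. These p-values therefore hold the spread of the gene itself and not the uncertainty of its neighbours' median. ITGA6, elsewhere on chromosome 2, had neighbours with a median of -0.50, and its fall was no longer called relative to them (log2 fold change -0.13, limma adjusted p = 0.359). Of the 40 neighbours of SPARC 31 lay below 0 and 21 were called lower (median -0.36). The other 9 lay above 0, and 4 neighbours were called higher. Those above 0, except LSM11, all stood at -0.95 Mb or farther left of SPARC, so the stretch was mixed. Relative to its median SPARC was 0.54 higher (limma adjusted p = 0.00228). TGFBI, on the same chromosome, had neighbours with a median of 0.17, none of which exceeded it, and its change relative to them was 2.60 (limma adjusted p = 3.04e-05). The neighbours of the other 6 genes had medians between -0.05 and 0.17. Relative to them the calls of LAMB1 (limma adjusted p = 0.0241) and LAMC1 (0.0237) held and those of FBN1 (0.161) and LAMB3 (0.0980) were lost.

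**Figure D5:**
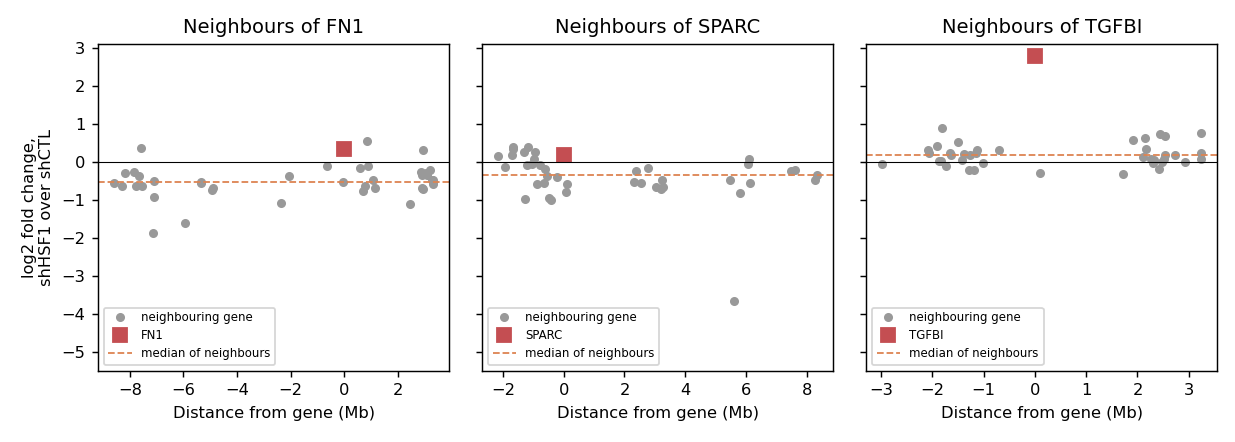
Log2 fold change of FN1, SPARC and TGFBI (red squares) and of the 40 tested neighbours of each, 20 on each side (grey points). The axis is distance from the gene in Mb, and the neighbours' median is a dashed line. The dashed lines stand at -0.52, -0.36 and 0.17, and each of the 3 genes lies above its line.

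The gene with the pattern most like that of each member was found by the root mean square difference between centred log2 profiles over the 6 libraries, among 10538 genes. For TGFBI it was B3GNT7 (difference 0.0878, log2 fold change 2.70), and the nearest of the other 8 genes, LAMB3, was much farther away (1.14). For FN1 it was LARP6 (0.0399), for SPARC SMARCD1 (0.0208) and for LAMC1 OSTF1 (0.0282). Among the 9 genes themselves SPARC and LAMC1 lay closest to each other (0.0873).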

How the data were processed

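RNA of 6 MDA-MB-231 samples was extracted with a Qiagen kit and made into libraries with a KAPA mRNA kit, per the labels' protocols. The authors deposited 1 table of RPKM values with gene coordinates and lengths. STAR, featureCounts and hg38 were used, per the submitters' processing notes; the sources used here name no versions, annotation release or strand setting. Samples were grouped by title; the control columns, named shScr in the table, were taken as shCTL, the only other shRNA. RPKM times length in kb summed to 1000000 in each column, and 100% of the values were whole multiples of 1 read within 0.01, which gave the reads. Within groups chi-square per gene between libraries was 18.5 to 59.1, more than counting noise alone gives, so none was a copy of another. Separate preparations of the same RNA could also give such values, so technical repeats cannot be told from separate cultures.

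The test was limma 3.58.1 (R 4.3.3) over the 12433 genes that reached 0.5 RPKM in 3 or more libraries, on log2(RPKM + 0.5), with a mean-variance trend, two-sided, with Benjamini-Hochberg adjustment over all tested genes and a threshold of 0.05. The 9 genes, the lists and the rule for named genes (up to 3 per direction with the largest change in each list) were chosen with earlier results of these data known; the motifs and the promoters shown were chosen after the sequences were seen. Same-numbered samples deviated together from their group means (correlations 0.468, 0.307 and 0.451, others -0.37 to -0.02). This was read as possible pairing, though no label says what a number marks. Deviations cancel within a group, so positive same-numbered correlations by themselves push the others down. The main test did not use the pairing, which enters only through the replicate block. The fit was also run on simulated data. Alternatives were the replicate block, each library left out, other filters (none, 1 RPKM) and pseudocounts (0.1, 1), median and quantile scaling, no trend, centring on the 40 neighbouring genes and, chosen after seeing the data, voom of limma on the recovered reads. Of the laminins 1 gene and the planned gamma-chain quantities are not reported here. The planned count tests were not run on the recovered reads, and voom was used in their place. Promoters come from RefSeq (GRCh38.p14). Plots used matplotlib 3.10.9 (Python 3.11.15).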

Additional observations from a re-analysis of the deposited data

How the results depend on the processing

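Counts over all genes were 2195 higher and 2006 lower; leaving out single libraries gave 1383 to 2374 higher (1383 without shHSF1 2 and 1404 without shCTL 3) and 1399 to 1943 lower, the replicate block 3257 and 2750, and voom on the recovered reads 2307 and 2062. Fewer genes were higher than lower with median scaling (1871 and 2227), quantile normalization (2125 and 2165), centring on neighbours (1564 and 1800), and without shCTL 1 (1854 and 1922) or shHSF1 2 (1383 and 1531). The count of the 9 genes called higher, 5, was 2 with no filter on low values, 3 with no mean-variance trend, 6 with the replicate block (FN1 added) and 1 to 6 with a library left out; none was called lower in any of the 16 alternatives. Laminin genes called higher, 3, were 1 with no filter and 0 to 2 with a library left out. Basement membrane partners called lower were 1 to 2 with a library left out. Receptors were 5 higher and 5 lower with the replicate block, and 1 to 5 higher and 3 to 5 lower with a library left out. With no filter on low values the calls of HSPG2 (limma adjusted p = 0.0697), NTN4 (0.106), FREM2 (0.0529) and ITGB3 (0.0509) were also lost, with no trend those of NTN4 (0.0533) and DAG1 (0.0536), with median scaling those of FREM2 (0.0615) and DAG1 (0.0638), and with centring on neighbours those of FREM2 (0.1401) and DAG1 (0.0770). The cause of these shifts was not tested. Of 144 values of the 9 genes under alternatives, 112 kept direction and side of the threshold, 24 lost their call, 6 gained one and 2 reversed, both for LAMA5: 0.16 without shCTL 2 and 0.12 without shHSF1 3, in a range of -0.30 to 0.16 with a library left out. The block changed no call of the 9 genes other than that of FN1. For summed RPKM and both laminin shares 8 alternatives were run (each library left out, the replicate block and median scaling). With a library left out, the shHSF1 minus shCTL difference of means was 64.56 to 98.75 RPKM for the sum. It was 3.90 to 7.17 percentage points for the LAMB3 share and 16.3 to 22.7 for the LAMA5 share. The block leaves a difference of means unchanged and median scaling cancels within a share, so neither could test the shares. Depth was ample for the 9 genes, the fewest reads being 158 for TGFBI in shCTL 3, while 3 libraries a group limit the precision.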

Other observations

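Among the tested genes of all the matrix and receptor lists, shCTL 2 was the highest control library for 42 of 53 (79.2%), against 41.9% of all tested genes. LAMA5, LAMA3, HSPG2, LTBP1 and ITGB4 were among them. ITGB4, the partner of ITGA6 in the laminin receptor of epithelia, was at 3.10, 4.31 and 3.88 RPKM in shHSF1, against 3.804, 7.56 and 4.92 RPKM in shCTL, a log2 difference of -0.44 that missed the threshold (adjusted p = 0.176 by limma) and passed it with the replicate block (0.0186). These genes were chosen after their values were seen.

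Latent TGF-beta binding proteins, which resemble fibrillins, went different ways. LTBP2 was higher in shHSF1 (1.29 ± 0.0548 RPKM in shHSF1 and 0.489 ± 0.107 RPKM in shCTL), LTBP1 lower (3.715 ± 0.310 RPKM in shHSF1 and 7.68 ± 2.13 RPKM in shCTL) and LTBP4 lower (7.65 ± 1.49 RPKM in shHSF1 and 14 ± 1.84 RPKM in shCTL; SD, n = 3 each), with limma adjusted p of 0.00143, 0.00562 and 0.00497. LTBP2 was at 0.388, 0.601 and 0.477 RPKM in shCTL and met the filter of the test only through shHSF1. LTBP3 did not pass the test (adjusted p = 0.427). The most abundant listed matrix genes, CYR61 (658.5 ± 41.3 RPKM in shHSF1 and 636 ± 67.6 RPKM in shCTL) and CTGF (328 ± 12.7 RPKM in shHSF1 and 282 ± 42.3 RPKM in shCTL), did not pass it either (limma adjusted p = 0.736 and 0.160). These too were chosen after their values were seen.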
